A study of Mus musculus with 6 samples.

Results

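The muscle nicotinic acetylcholine receptor is the channel by which a muscle fibre responds to its motor nerve. Its 5 subunit genes, Chrna1, Chrnb1, Chrnd, Chrne and Chrng, were followed here in RNA sequencing of mouse gastrocnemius, the large calf muscle. They were chosen by name as the complete set of muscle-type subunits and were found by Ensembl identifier among 49315 genes in each table. All 5 passed the filter on low counts. The compared groups were 3 libraries from mKO mice, a muscle-specific knockout of Hnrnpu, and 3 libraries from WT mice. Both groups were 3 months old, on a mixed C57BL/6 129 background, and total RNA came from frozen whole muscle. Hnrnpu encodes a nuclear RNA-binding protein, and the series asks what its loss does to muscle RNA. The sources used here give neither the Cre driver nor the deleted exons. The labels number the replicates without saying that each is a separate mouse. What p-values measure is then the variation among these libraries, which may be technical.

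The receptor is a pentamer of alpha, beta and delta chains with either a gamma or an epsilon chain. In rodents, receptors of fetal muscle carry gamma, encoded by Chrng, and after birth epsilon, encoded by Chrne, takes its place. In adult innervated fibres the subunit genes are transcribed mainly by the nuclei under the nerve ending. After denervation, nuclei along the whole fibre transcribe Chrna1, Chrnb1, Chrnd and Chrng again. Factors of the MyoD family, which bind E-boxes, drive this transcription outside the synapse, and ETS factors such as GABP, which bind N-boxes, drive the synaptic part.

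The genes lie at 3 places in the GRCm38 genome. Chrnd (ENSMUSG00000026251, chr1:87190607-87200070, plus strand) and Chrng (ENSMUSG00000026253, chr1:87204657-87212694, plus strand) are neighbours with 4586 bases between them. Chrna1 (ENSMUSG00000027107) is at chr2:73563215-73580338 on the minus strand. Chrnb1 (ENSMUSG00000041189, chr11:69784036-69795943) and Chrne (ENSMUSG00000014609, chr11:70614883-70619216) lie on the minus strand of chromosome 11. Counts were summed over all annotated exons of each gene, untranslated parts included. The exons add up to 4386 bases in Chrna1, 2531 in Chrnb1, 3288 in Chrnd, 1690 in Chrne and 4163 in Chrng, and none shares an exon base with another gene.

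The 250 bases before the RefSeq start site are shown for the 4 members with an entry in the RefSeq promoter table (GRCm38.p6), because E-boxes and N-boxes are the letters by which subunit promoters are usually described. Each sequence runs 5′ to 3′ on the strand of its gene, and capitals mark every match to CANNTG or CCGGAA on either strand. The windows are chr2:73580339-73580588 (minus) for Chrna1, chr11:69795938-69796187 (minus) for Chrnb1, chr11:70619195-70619444 (minus) for Chrne and chr1:87205561-87205810 (plus) for Chrng.
Chrna1: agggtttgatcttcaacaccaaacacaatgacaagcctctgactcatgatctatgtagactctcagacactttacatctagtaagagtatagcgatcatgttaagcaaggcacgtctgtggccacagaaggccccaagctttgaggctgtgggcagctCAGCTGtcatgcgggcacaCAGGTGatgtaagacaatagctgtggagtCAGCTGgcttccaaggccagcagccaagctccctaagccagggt
Chrnb1: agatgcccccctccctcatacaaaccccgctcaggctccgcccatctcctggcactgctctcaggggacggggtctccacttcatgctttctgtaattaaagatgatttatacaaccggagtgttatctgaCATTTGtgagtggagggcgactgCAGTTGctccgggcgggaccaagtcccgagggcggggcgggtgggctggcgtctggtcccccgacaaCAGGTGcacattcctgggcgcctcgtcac
Chrne: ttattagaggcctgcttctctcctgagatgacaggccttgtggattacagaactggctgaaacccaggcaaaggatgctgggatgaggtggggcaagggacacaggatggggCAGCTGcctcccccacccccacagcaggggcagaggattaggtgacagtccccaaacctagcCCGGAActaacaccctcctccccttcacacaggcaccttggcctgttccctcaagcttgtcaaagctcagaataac
Chrng: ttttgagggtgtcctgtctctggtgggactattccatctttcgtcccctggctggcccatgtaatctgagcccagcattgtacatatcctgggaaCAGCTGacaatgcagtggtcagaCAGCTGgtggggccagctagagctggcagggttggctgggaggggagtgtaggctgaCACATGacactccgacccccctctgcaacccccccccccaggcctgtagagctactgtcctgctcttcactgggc
The Chrng window lies inside the gene as the count tables annotate it, in an intron apart from its last base, because 1 annotated transcript starts further upstream. Nearest the start site, 6 bases of the Chrnb1 window and 22 of the Chrne window also fall in annotated exons. The E-box core CANNTG matched 3 times in Chrna1, 3 times in Chrnb1, 3 times in Chrng and 1 time in Chrne. It occurs in 66.2% of 32851 promoters of the same length. The form CAGCTG, which is contained in CANNTG and is counted in both, matched 2 times in Chrna1, 2 times in Chrng, 1 time in Chrne and 0 times in Chrnb1, and occurs in 13.0% of promoters. In Chrng the CAGCTG matches begin 155 and 132 bases before the start site, and in Chrna1 they begin 92 and 44 bases before it. The N-box CCGGAA matched 1 time in Chrne, at bases -76 to -71, and 0 times in the Chrna1, Chrnb1 and Chrng windows, against 12.0% of all promoters. These matches describe letters only and do not show that a factor binds.

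Library totals ran from 32108684 to 38095211 counts in mKO and from 34871043 to 42344238 in WT. Levels are CPM, counts scaled to a common library size with TMM factors. Fold changes are mKO over WT from edgeR's quasi-likelihood test with Benjamini-Hochberg adjustment over 16650 tested genes. The standard error (SE) is printed beside some of the log2 values. Without TMM, scaling by library totals moved the median gene by a log2 value of 0.465 towards mKO, so every log2 value below would sit about that much higher. Hnrnpu itself had 209, 210 and 205 CPM in mKO, against 233, 235 and 247 CPM in WT. In log2 terms mKO stood at -0.20 relative to WT (SE 0.10, edgeR adjusted p = 0.147), and by library totals 0.27 (edgeR adjusted p = 0.0402). With the deleted exons not given, these whole-gene counts do not check the deletion, and the groups are those of the labels.

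Of the 5 subunit genes, Chrng, Chrnd and Chrna1 rose in mKO muscle, Chrne fell, and Chrnb1 did not pass the test. The fetal gamma gene went furthest, with 346 counts in all mKO libraries and 2 in all WT libraries. The adult epsilon gene fell to 53.4% of its WT level. The 3 genes that rose stand against 18.2% of all tested genes called higher, and the 1 that fell against 18.9% called lower. In either direction, 4 of 5 members were called, against 37.0% of all tested genes. For the same 4 genes the mKO and WT libraries did not overlap, as held for 49.3% of all tested genes.

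**Figure D1:**
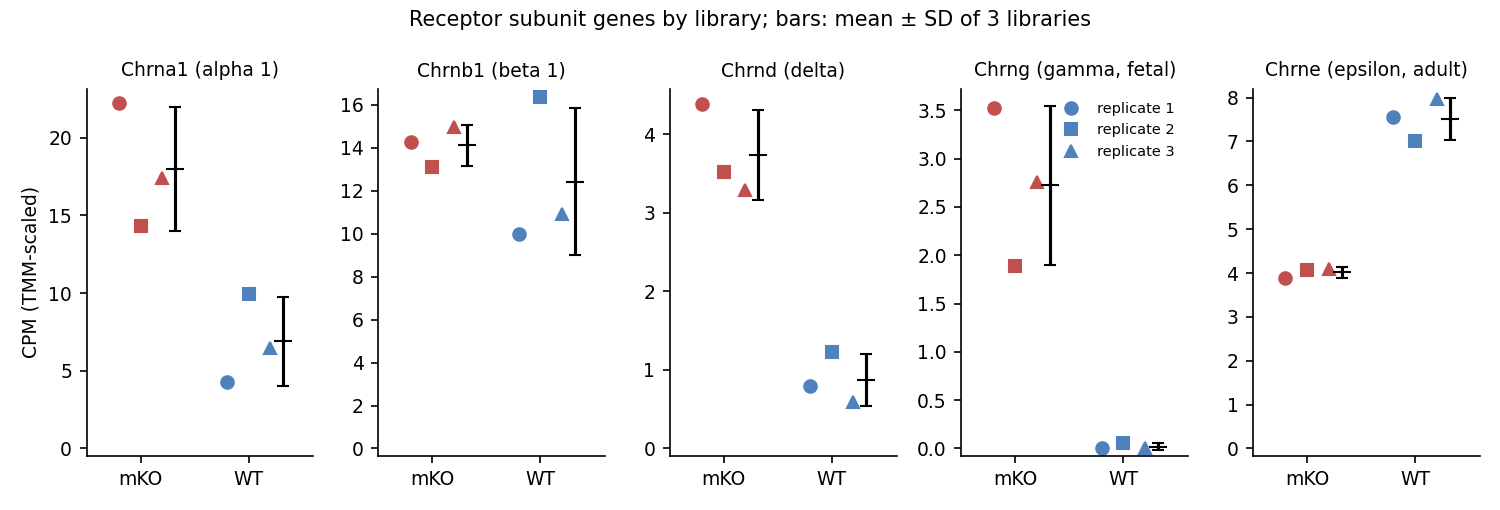
TMM-scaled CPM of each receptor subunit gene in the 3 mKO libraries (red) and the 3 WT libraries (blue). Marker shapes give the replicate number and bars give the mean ± SD of 3 libraries. Chrna1, Chrnd and Chrng lie higher in every mKO library than in any WT library, Chrne lies lower in every mKO library, and the Chrnb1 groups overlap.

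Chrng, the gamma subunit of the fetal receptor, had 160, 84 and 102 counts in mKO, against 0, 2 and 0 counts in WT. In CPM these were 3.53, 1.89 and 2.75 in mKO and 0, 0.0613 and 0 in WT. Every mKO library held Chrng well above the WT libraries, which were at the edge of detection: a count of 0 allows up to 0.1002 CPM in WT replicate 1 and 0.0839 CPM in WT replicate 3. The summed mKO counts, per scaled library size, were 134 times the WT counts, with an exact 95% counting interval of 36.8 to 1110, and the edgeR adjusted p was 5.31e-06. Both WT counts came from replicate 2, and without it the remaining WT libraries hold no Chrng count.

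Chrne, the epsilon subunit that replaces gamma in adult junctions, had 3.88, 4.06 and 4.10 CPM in mKO, against 7.55, 7.02 and 7.97 CPM in WT. The 6 values form separate groups with little spread, the coefficient of variation being 3.00% in mKO and 6.35% in WT, the smallest of the members in each group. The fitted log2 difference was -0.90 (SE 0.16, edgeR adjusted p = 0.000674), which is a 1.87-fold lower level. Scaled by library totals it was -0.44 (edgeR adjusted p = 0.0324), still lower in mKO although the median gene moved the other way.

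Gamma and epsilon fill the same place in the pentamer, so their transcripts can be read as a share of one another within each library, independent of scaling between libraries. Per kilobase of exon, Chrng made up 27.0%, 15.9% and 21.4% of Chrng plus Chrne in mKO. In WT it made up 0%, 0.353% and 0%, and a floor of 3 counts stands for 0.543% in replicate 1 and 0.430% in replicate 3, where the exact 95% intervals end at 0.664% and 0.526%. The lowest mKO library, with an exact 95% counting interval of 12.6% to 19.7%, lay far above the WT library with counts, whose interval was 0.0427% to 1.28%. The mean share was 21.4% ± 5.55 in mKO and 0.118% ± 0.204 in WT (SD, n = 3 each), a difference of 21.3 percentage points; a two-sided exact permutation test gave p = 0.1, the smallest that 3 against 3 libraries can give. Epsilon therefore remained the more abundant of the pair in every mKO library on this scale. Without division by length, Chrng also had fewer counts than Chrne in every mKO library. The size of the share depends on the lengths used, which are those of all annotated exons. Which transcripts were expressed was not tested. On raw counts, which favour the longer Chrng, the mean share was 39.8% ± 7.97 in mKO and 0.289% ± 0.4999 in WT (SD, n = 3 each).

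**Figure D2:**
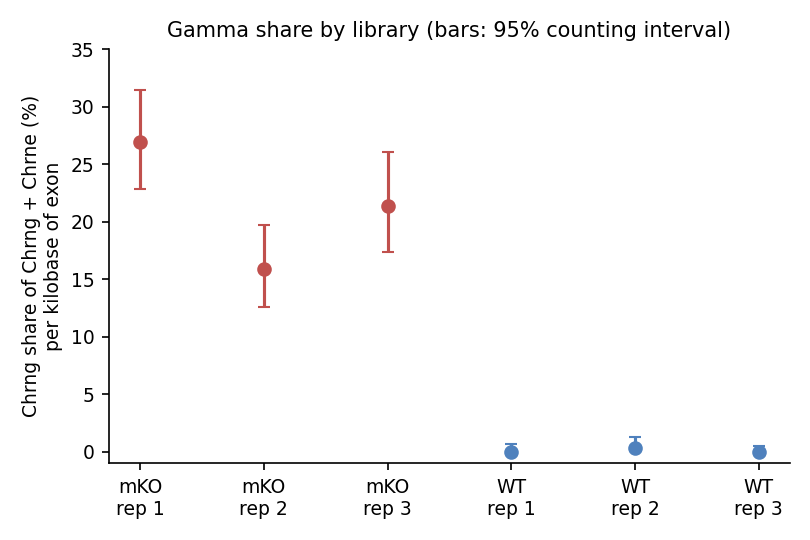
Chrng as a percentage of Chrng plus Chrne per kilobase of exon in each library, mKO libraries in red and WT libraries in blue. Bars are exact 95% counting intervals, which cover counting error only. The mKO libraries lie between 15.9% and 27.0% and the WT libraries between 0% and 0.353%.

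Chrnd, the delta subunit, which is part of both the fetal and the adult receptor, had 4.38, 3.52 and 3.29 CPM in mKO, against 0.802, 1.23 and 0.587 CPM in WT. Every mKO library exceeded every WT library, on 478 mKO and 85 WT counts in all. The fold change was 4.29 (log2 2.10, SE 0.28, edgeR adjusted p = 0.000111). Its 95% interval was 2.80 to 6.58.

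Chrna1, the alpha subunit that carries most of the acetylcholine-binding site, had 22.2, 14.3 and 17.4 CPM in mKO, against 4.28, 9.96 and 6.46 CPM in WT. The groups did not overlap, and the ratio between the nearest libraries, mKO replicate 2 and WT replicate 2, was the smallest of the called members. The fold change was 2.60 (log2 1.38, SE 0.25, 95% interval 1.78 to 3.80, edgeR adjusted p = 0.000988).

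Chrnb1, the beta subunit, had 14.3, 13.1 and 15.0 CPM in mKO, against 9.99, 16.4 and 10.9 CPM in WT. The highest of the 6 values was a WT library, and the groups overlapped. The fitted log2 difference was 0.18 (SE 0.17, edgeR adjusted p = 0.448), with an interval of -0.20 to 0.56 that leaves room for a fold change between 0.873 and 1.47. The call depends on the scaling and on 1 library. By library totals the log2 fold change was 0.65 (edgeR adjusted p = 0.00710), and without WT replicate 2 it was 0.43 (edgeR adjusted p = 0.0277).

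Libraries of the same group differed in a shared way. WT replicate 2 had the highest WT level of Chrna1, Chrnb1 and Chrnd and was the WT library with Chrng counts. In mKO, replicate 1 had the highest level of Chrna1, Chrnd and Chrng. The coefficient of variation of Chrna1, Chrnb1 and Chrnd was 41.6%, 27.7% and 37.3% in WT, against 22.2%, 6.77% and 15.4% in mKO. Chrne did not share this order, being lowest in both of those libraries within their groups.

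Levels can be compared between genes only per length, as RPKM, which is CPM divided by the exon length in kilobases. This length covers all annotated exons and can exceed that of the transcripts in use, so orders and shares between genes depend on it. In mKO the order was Chrnb1 at 5.57 ± 0.377, Chrna1 at 4.10 ± 0.911, Chrne at 2.38 ± 0.0712, Chrnd at 1.14 ± 0.175 and Chrng at 0.654 ± 0.197 RPKM (SD, n = 3). In WT it was Chrnb1 at 4.91 ± 1.36, Chrne at 4.45 ± 0.282, Chrna1 at 1.57 ± 0.654 and Chrnd at 0.265 ± 0.0989 RPKM (SD, n = 3), with Chrng at 0, 0.0147 and 0 RPKM. Chrnb1 and Chrne overlapped in WT, at 3.95 to 6.47 and 4.15 to 4.72 RPKM, so their WT order was not resolved. In mKO, Chrnb1 and Chrna1 were separated only narrowly, at 5.17 to 5.92 and 3.26 to 5.07 RPKM. Alpha thus stood above epsilon in the mKO order and below it in the WT order.

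The sum of the 5 genes was 13.8 ± 1.41 RPKM in mKO and 11.2 ± 1.88 RPKM in WT (SD, n = 3 each), with overlapping groups and an exact two-sided permutation p of 0.2. Within that sum the make-up differed. Chrne made up 17.3% ± 2.17 in mKO and 40.6% ± 8.15 in WT, and Chrna1 made up 29.4% ± 3.62 in mKO and 13.7% ± 3.49 in WT (SD, n = 3 each). The Chrnd share was 8.21% ± 0.905 in mKO and 2.34% ± 0.593 in WT, and the Chrng share was 4.66% ± 0.960 in mKO and 0.0370% ± 0.0640 in WT. For these 4 genes the shares did not overlap between groups, and a two-sided exact permutation test gave p = 0.1, its floor with these libraries. Shares of 1 sum depend on each other and are not separate results. The levels of 49.3% of all tested genes did not overlap either. Chrnb1 was the steady component, at 40.4% ± 2.88 in mKO and 43.4% ± 4.63 in WT, with overlapping groups and an exact permutation p of 0.6.

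**Figure D3:**
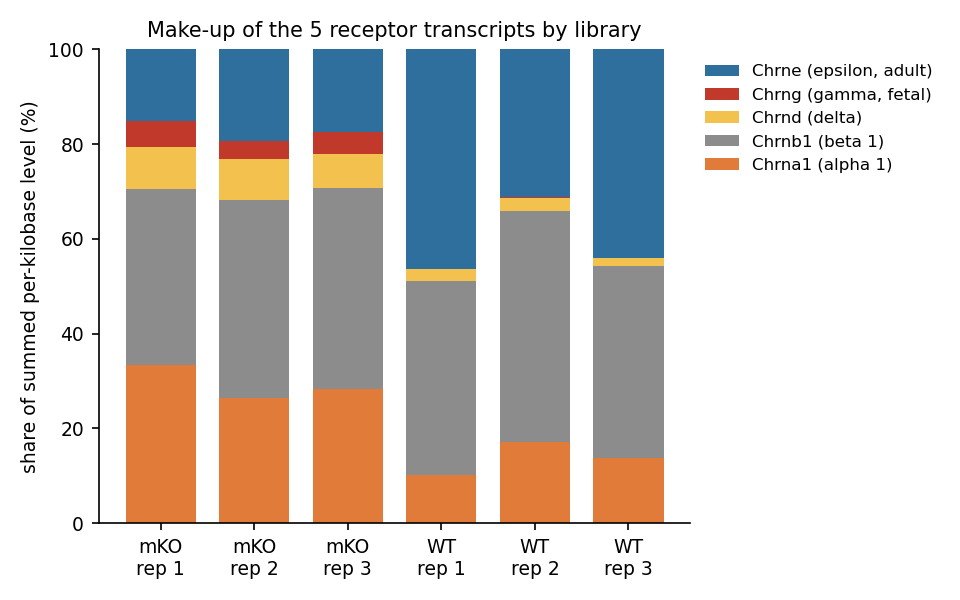
Percentage that each subunit gene contributes to the summed RPKM of the 5 genes in each library, the 3 mKO libraries left of the 3 WT libraries. Chrne (blue) takes 15.1% to 19.5% of the sum in mKO libraries and 31.3% to 46.4% in WT libraries, while Chrnb1 (grey) takes 37.1% to 42.3% in mKO and 40.4% to 48.7% in WT.

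Ratios between subunit genes do not depend on the scaling of the libraries. All 10 pairs were compared on the log2 scale, per kilobase and with 0.5 counts added to each gene. In 9 pairs the mKO and WT libraries did not overlap. Each of these had an exact two-sided permutation p of 0.1, or 0.111 adjusted over the 10 pairs. No pair could therefore pass a threshold of 0.05. The pairs reuse the same 5 genes and are not separate results. Of single tested genes 49.3% did not overlap, and the share over other gene pairs was not computed. Chrna1 over Chrne was 5.07-fold higher in mKO than in WT, and Chrnd over Chrne was 8.18-fold higher. Chrnb1 over Chrne differed less, by 2.17-fold, with log2 ratios of 1.10 to 1.29 in mKO and -0.18 to 0.64 in WT. Chrna1 over Chrnb1 was 2.34-fold higher in mKO. Chrnd over Chrna1 was the pair that overlapped, with a log2 difference of 0.69 and an exact permutation p of 0.2. For the adjacent pair, the log2 ratio of Chrng over Chrnd was -0.65, -1.24 and -0.60 in mKO and -4.36 in WT replicate 2. In the 4 pairs with Chrng, the values of WT replicates 1 and 3 are set by the 0.5 counts added to a count of 0 and are not measured ratios.

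Besides the muscle-type subunits, 11 nicotinic subunit genes known from neurons and sensory or immune cells were looked up, of which 4 passed the filter on low counts. Chrna9, an alpha subunit known from the hair cells of the inner ear, had 1.85, 1.71 and 1.46 CPM in mKO, against 0.0334, 0.184 and 0.0839 CPM in WT. The groups were far apart, on 214 mKO and 10 WT counts, a ratio of 16.6 with an exact 95% counting interval of 8.84 to 35.1 (edgeR adjusted p = 4.20e-05). Chrna2, a neuronal alpha subunit, went the other way, with 0, 0.0898 and 0.189 CPM in mKO, against 0.468, 0.766 and 0.727 CPM in WT (log2 -2.84, edgeR adjusted p = 0.00681). Chrna7 (log2 -0.47, edgeR adjusted p = 0.604) and Chrnb2 (log2 0.77, edgeR adjusted p = 0.443) did not pass. Chrna10, the usual partner of Chrna9 in the hair-cell receptor, had 7 counts in mKO and 14 in WT and was not tested. No counts were found for Chrna3, Chrna6 and Chrnb4 in any library, and Chrna4, Chrna5 and Chrnb3 had too few for a test.

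Genes that cluster the receptor under the nerve ending did not move as a block. Of 13 tested, 3 rose and 2 fell, against 18.2% and 18.9% of all tested genes. The median log2 fold change was 0.18, beside 0.02 over all tested genes. Musk, the receptor kinase that organises the postsynaptic membrane, rose to 83.5 ± 7.12 CPM in mKO, against 51.3 ± 5.63 CPM in WT (SD, n = 3 each; log2 0.70, edgeR adjusted p = 0.000602). Ache, which encodes the enzyme that breaks down acetylcholine, rose by a log2 value of 1.66 (edgeR adjusted p = 8.09e-05). Erbb2, a neuregulin receptor, was called higher (log2 0.66, edgeR adjusted p = 0.0312) but lost the call in 9 of 16 alternatives. Erbb4, another neuregulin receptor (log2 -1.77, edgeR adjusted p = 0.00870), and Crk, an adaptor that binds Dok7 (log2 -0.46, edgeR adjusted p = 0.00518), fell, and Crk by library totals was at 0.0086, on the other side of 0. Rapsn, the scaffold that binds the receptor directly, had 6.38 ± 0.833 CPM in mKO and 7.45 ± 1.05 CPM in WT (SD, n = 3 each), with overlapping groups (log2 -0.22, edgeR adjusted p = 0.327). Agrn, Lrp4 and Dok7, which encode agrin, its receptor and an adaptor upstream of clustering, had log2 fold changes of 0.18, -0.07 and 0.11 and did not pass. These are transcripts of gastrocnemius tissue, so the agrin that motor nerves supply was not measured. Counted by library totals, 9 of the list were higher and 1 lower, against 49.0% and 6.75% of all genes.

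In the scaffold and basal lamina of the junction, 2 of 15 tested genes rose and 1 fell, against 18.2% and 18.9% of all genes. The median log2 fold change was -0.04. Nes, an intermediate filament found at junctions and in young fibres (log2 1.78, edgeR adjusted p = 2.26e-06), and Macf1, a linker of microtubules to actin (log2 1.23, edgeR adjusted p = 4.85e-06), rose. Sntb2, a syntrophin of the dystrophin complex, had a log2 fold change of 0.26 that did not pass (edgeR adjusted p = 0.0745). Utrn, the synaptic relative of dystrophin, had 105 ± 8.19 CPM in mKO and 102 ± 7.96 CPM in WT (SD, n = 3 each), and the groups overlapped. By library totals 10 of the list were higher and 1 lower, against 49.0% and 6.75% of all genes.

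Of 20 regulators of subunit gene transcription, 8 rose and 3 fell, against 18.2% and 18.9% of all tested genes. The median log2 fold change was 0.17. Myog, a MyoD family member known to drive subunit genes after denervation, had 40.4, 24.5 and 25.7 CPM in mKO, against 4.18, 7.02 and 6.38 CPM in WT. It was 5.14-fold higher (log2 2.36, SE 0.22, edgeR adjusted p = 7.17e-06), and its highest mKO and highest WT values fell in the same libraries as those of Chrna1 and Chrnd. Its relatives Myod1 (log2 0.52, edgeR adjusted p = 0.0112) and Myf6 (log2 0.49, edgeR adjusted p = 0.0165) rose less. Dach2, which in mouse muscle represses Myog and is itself lowered by denervation, fell to 0.473 ± 0.107 CPM in mKO, against 7.05 ± 2.56 CPM in WT (SD, n = 3 each; log2 -3.88, edgeR adjusted p = 2.66e-06). The class IIa deacetylase genes did not move together: Hdac5 rose (log2 0.52, edgeR adjusted p = 0.00342), while Hdac4 and Hdac9 had log2 fold changes of -0.10 and 0.15 and did not pass. Mef2d rose (log2 0.80, edgeR adjusted p = 0.000379), whereas Mef2c (log2 -0.68, edgeR adjusted p = 0.000645) and Mef2a (log2 -0.50, edgeR adjusted p = 0.00518), members of the same family of muscle activators, fell, though neither was called by library totals.

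Of the GABP genes, the regulators of the synaptic route, none passed the test. Gabpa, the DNA-binding part of GABP, had 51.9 ± 0.690 CPM in mKO and 61.7 ± 6.02 CPM in WT (SD, n = 3 each; log2 -0.25, edgeR adjusted p = 0.0906), and its partners Gabpb1 (edgeR adjusted p = 0.418) and Gabpb2 (edgeR adjusted p = 0.593) had log2 fold changes of 0.19 and -0.08. The ETS genes Etv5 (log2 0.68, edgeR adjusted p = 0.00281) and Erf (log2 0.67, edgeR adjusted p = 0.0333; not called in 7 of 16 alternatives) were called higher, as did the kinase gene Sik1 (log2 0.81, edgeR adjusted p = 0.00272). By library totals 13 of the 20 regulators were higher and 1 lower, against 49.0% and 6.75% of all genes.

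For folding, assembly and turnover of the receptor, 4 of 14 tested genes rose and 3 fell, against 18.2% and 18.9% of all genes. The median log2 fold change was 0.31. Myo5a, a motor that carries recycling receptors, rose (log2 0.81, edgeR adjusted p = 0.000551), as did Ric3, a chaperone of nicotinic receptors (log2 0.79, edgeR adjusted p = 0.00142), the disulfide isomerase gene Pdia3 (log2 0.66, edgeR adjusted p = 0.00122) and the chaperone gene Hsp90b1 (log2 0.43, edgeR adjusted p = 0.0298). Trim63, the muscle ubiquitin ligase MuRF1 that takes part in receptor turnover, fell (log2 -0.67, edgeR adjusted p = 0.00110). Rer1, which retains unassembled subunits (log2 -0.60, edgeR adjusted p = 0.00157), and the ubiquitin ligase gene Stub1 (log2 -0.52, edgeR adjusted p = 0.00192) fell too. By library totals 10 of the 14 were higher and 0 lower, so the 3 falls were not called there. Over all tested genes that scaling called 49.0% higher and 6.75% lower.

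Of 10 listed genes known to rise in denervated muscle, 9 rose and 1 fell, with a median log2 fold change of 2.43. Over all tested genes, 18.2% were called higher and 18.9% lower. This list was chosen with earlier results of these data known and is not a complete set of such genes. Musk, which rose, and Trim63, which fell, stand in other lists and were not counted in it. Myog and Myod1 stand in this list as well as among the regulators. Sln, a small inhibitor of the calcium pump, had the largest change (log2 7.66, edgeR adjusted p = 3.41e-09), followed by Ankrd1, which encodes an ankyrin-repeat protein of the sarcomere (log2 4.04, edgeR adjusted p = 1.89e-07), and the transcription factor gene Runx1 (log2 2.99, edgeR adjusted p = 3.04e-08). Ncam1, an adhesion molecule that spreads over denervated fibres, rose to 35.7 ± 3.54 CPM in mKO, against 7.11 ± 0.366 CPM in WT (SD, n = 3 each; log2 2.33, edgeR adjusted p = 1.49e-07). The gene that fell was Dkk3, which encodes a secreted protein (log2 -2.22, edgeR adjusted p = 2.07e-05).

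**Figure D4:**
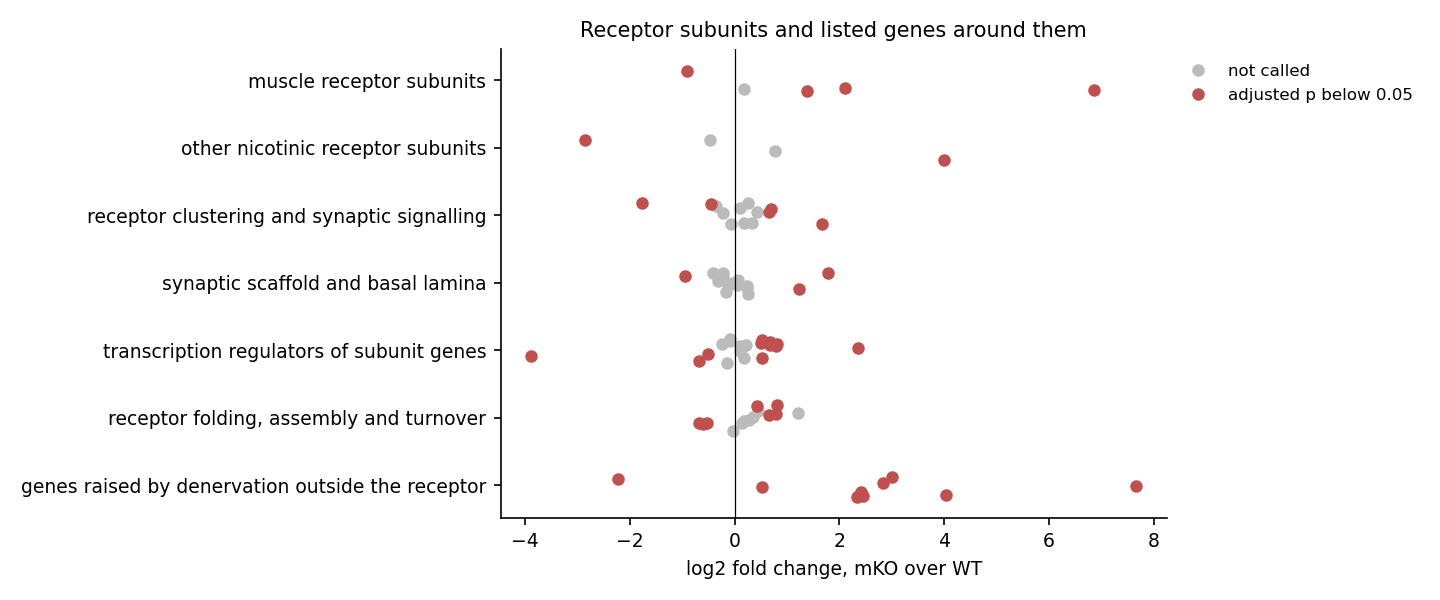
Log2 fold change, mKO over WT, of the 5 receptor subunit genes (top) and of the tested genes of 6 lists around them. Each point is a gene and red points have an edgeR adjusted p below 0.05. The denervation list, which is not a complete set of such genes, has 9 of 10 genes to the right of 0 in red. The clustering, scaffold and folding lists scatter around 0.

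The genes next to the subunit genes were looked up for each locus. At the Chrnd and Chrng pair, Prss56 on one side had no counts in any library. On the other side Eif4e2, a cap-binding protein gene, had 42.5 ± 1.82 CPM in mKO and 47.4 ± 2.95 CPM in WT (SD, n = 3 each; log2 -0.16, edgeR adjusted p = 0.264). Wipf1, next to Chrna1, had a log2 fold change of 0.19 (edgeR adjusted p = 0.379), and the noncoding Chrna1os had 28 counts in mKO and 14 in WT and was not tested. Zbtb4, a zinc-finger gene whose end lies 12 bases from that of Chrnb1, fell (log2 -0.74, edgeR adjusted p = 0.000167), while Fgf11 on the other side had a log2 fold change of -0.45 (edgeR adjusted p = 0.110). Mink1, a kinase gene next to Chrne, was called higher with overlapping groups (log2 0.65, edgeR adjusted p = 0.0260), opposite in sign to Chrne. 4930544D05Rik, annotated as protein-coding on the other strand within the span of Chrne, shares no exon base with it. Neither that gene nor Gm12315, next to Chrne, had counts.

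The genes with the most similar profiles were sought by the root mean square difference of log2 CPM, centred on the WT mean, over the 6 libraries. This measure follows the size of the group difference as well as the order of the libraries, and it is given as a description. Nearest to Chrng was Mymk, a membrane protein needed for myoblast fusion (difference 0.148), with 3.92, 1.93 and 2.56 CPM in mKO, against 0, 0.0920 and 0 CPM in WT. Like Chrng, it was highest in mKO replicate 1 and had WT counts only in replicate 2. That WT likeness rests on 3 counts of Mymk and 2 of Chrng, at the edge of detection, and Klk1b22 shared it. The next for Chrng, Klk1b22 (0.397) and the asparagine synthetase gene Asns (0.405), were less close. For Chrna1 the nearest were Lilra6 (0.115), Fignl1 (0.130) and Lrrc25 (0.145), and for Chrnd they included Pck2 (0.184) and Uchl1 (0.194). For Chrne the nearest were much closer, at 0.0327 for the ubiquitin ligase gene Wwp1, 0.0416 for Fopnl and 0.0421 for the DNA-damage kinase gene Atm. Lilra6 and Lrrc25 are known from myeloid cells.

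Markers of several cell types in whole muscle moved with the groups. The counts of markers below stand against 18.2% of all tested genes called higher and 18.9% lower. By library totals these shares were 49.0% and 6.75%. In bulk RNA, fewer cells of a type and less RNA per cell cannot be told apart. All 7 tested markers of immature or regenerating fibres rose, with a summed level of 665 to 731 CPM in mKO and 54.6 to 112 CPM in WT. The embryonic myosin gene Myh3 among them had a log2 fold change of 5.58 (edgeR adjusted p = 4.55e-08), and the eighth marker, Dlk1, had too few counts for a test. Of 8 markers of mature fibres, 6 fell and 0 rose, with 167515 to 199608 CPM in mKO and 269960 to 291933 CPM in WT. The labelled tissue was therefore plain in both groups, and the fast myosin gene Myh4 alone averaged 14356 CPM in mKO and 42746 CPM in WT. All 8 macrophage markers rose, with 539 to 902 CPM in mKO and 259 to 312 CPM in WT. Of 8 markers of satellite cells and myoblasts, 3 rose and 1 fell, with 1543 to 1723 CPM in mKO and 1087 to 1321 CPM in WT, mostly from Des, which mature fibres also express. The count of 3 was 0 without mKO replicate 3 and 1 without WT replicate 1 or mKO replicate 1, and by library totals 5 were higher and 0 lower. Pax7, the defining marker of satellite cells, rose to 2.12 ± 0.214 CPM in mKO, against 1.13 ± 0.506 CPM in WT (SD, n = 3 each; edgeR adjusted p = 0.0396), a call lost in 5 of the 6 fits without 1 library.

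Schwann cells, which cover the nerve ending, showed no called marker of 8, with 34.2 to 79.1 CPM in mKO and 48.1 to 55.1 CPM in WT. This rested on mKO replicate 3: without it 3 of the 8 were called lower, among them Mbp (log2 -1.03, edgeR adjusted p = 0.00614), and the median log2 fold change was -0.85 in place of -0.28. Of 8 endothelial markers 7 fell and 0 rose, with 189 to 207 CPM in mKO and 301 to 393 CPM in WT, and by library totals 2 fell and 0 rose. Of 8 markers of fibro-adipogenic progenitors 1 was called higher, Col1a1, with overlapping groups and an edgeR adjusted p of 0.0486. Col1a1 lost this call in 6 of 16 alternatives, including the fits without WT replicate 1, WT replicate 3 or mKO replicate 3, in which 0 of the 8 were called higher, and by library totals 7 were higher. Their summed level was 1370 to 1438 CPM in mKO and 1299 to 1514 CPM in WT. No marker of these 7 lists was without counts in all libraries. The part of these cell types in the subunit levels was not tested. Among the fibre markers, Mymk is also the gene nearest in profile to Chrng.

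**Figure D5:**
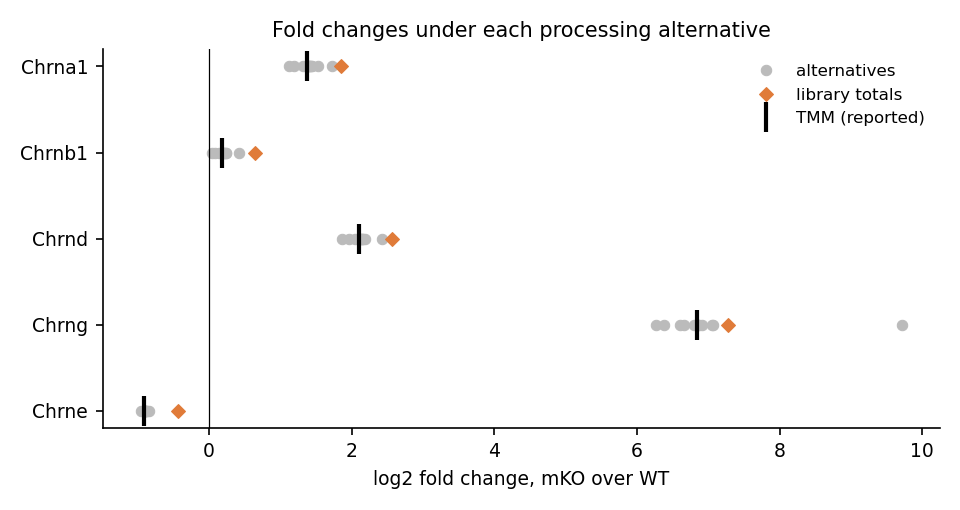
Log2 fold change, mKO over WT, of each subunit gene as reported (black bar), under each processing alternative (grey circles) and with library totals in place of TMM (orange diamonds). Chrna1, Chrnd and Chrng stay above 0 and Chrne below 0 throughout, while Chrnb1 lies between 0.04 and 0.65. The isolated Chrng point at 9.71 is the fit without WT replicate 2, in which both remaining WT libraries have 0 counts, and it is no bound.

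Across 16 alternatives, among them DESeq2, limma-voom, other scaling factors and filters and the omission of each library in turn, Chrna1, Chrnd, Chrng and Chrne kept their direction and an adjusted p below 0.05. The log2 fold change ranged from 1.13 to 1.85 for Chrna1, from 1.87 to 2.57 for Chrnd and from -0.96 to -0.44 for Chrne. The summed counts behind the lowest levels were 346 in mKO and 2 in WT for Chrng and 478 in mKO and 85 in WT for Chrnd, so the WT level of Chrng is known only as near or under the limit that these libraries allow.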

How the data were processed

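Gastrocnemius RNA was extracted with Trizol and made into libraries with the NEBNext Ultra RNA kit, per the labels' protocols. The authors deposited raw counts per gene, 1 table per library, with exon coordinates and a gene length in each table, per the file headers. The submitters' processing notes name Trimmomatic 0.36, STAR 2.5.2b, featureCounts from Subread 1.5.2, and the GRCm38 build. For the annotation release, strandedness, pair counting and multi-mapping reads the setting is not given in the sources used here. As named, this kit does not record strand, so reads of a gene and of an antisense partner cannot be told apart.

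Of 49315 identifiers, 48970 matched a symbol in the GENCODE M21 annotation. Sample titles gave the groups. The depth was 32108684 to 42344238 counts per library. Chi-square per degree of freedom between replicates was 20.9 to 57.7, beyond sampling noise for every pair. The test was edgeR 4.0.16 (R 4.3.3), quasi-likelihood, with TMM factors, the default filter by group and group as the only term, called at an adjusted p below 0.05; the biological coefficient of variation was 16.1%. SD is over 3 libraries. CPM uses the TMM-scaled library size, and RPKM divides CPM by the length in kilobases that the authors' tables give as the deposited length of all exons. The ratio of Chrng and Chrna9 is that of summed counts. Intervals of shares are Clopper-Pearson at 95%, floors are 3 counts per library, and both cover counting error only. Simulated counts served as a check of the fit, with far fewer changed genes than were called in the data. When each simulated gene varied between replicates by its own amount, more calls were false than the 0.05 threshold allows. P-values of unchanged genes were still calibrated there. When variation followed a common trend over genes, the share of false calls stayed within the threshold. The calls given here, the share over all tested genes included, may therefore hold more false ones than 0.05 implies. The share of false calls depends on how many genes truly change, so the simulated share does not carry over to these data.

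The 5 genes, the 6 pathway lists and the 7 marker lists were chosen with earlier results of these data known. Named genes are the 5 members, Hnrnpu, up to 4 members of each pathway list by lowest p, the 2 most abundant of each marker list, annotated neighbours and the 3 nearest profiles of each called member with a mean of at least 1 CPM. Other list members named in the text were picked with their values in view. Of the genes that this rule takes or the lists hold, 3 are not reported here by name. The alternatives tried were DESeq2 1.42.0, limma 3.58.1 (voom), other scaling factors and filters, robust dispersion, a stricter threshold, replicate number as an added model term and the omission of each library.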

Additional observations from a re-analysis of the deposited data

How the results depend on the processing

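Of the 5 members, Chrna1, Chrnd, Chrne and Chrng kept direction and call under all 16 alternatives, and Chrnb1 did not keep its side of the threshold in 2 of them: its log2 fold change was 0.65 (edgeR adjusted p = 0.00710) with library totals and 0.43 (edgeR adjusted p = 0.0277) without WT replicate 2. With library totals 9283 genes were called, and 3973 at an adjusted p below 0.01, beside 6166. Leaving out each library gave 4766 to 6255 genes and 4 to 5 members, log2 fold changes of 1.13 to 1.73 for Chrna1, 0.042 to 0.43 for Chrnb1, 1.87 to 2.43 for Chrnd, -0.96 to -0.86 for Chrne and 6.27 to 9.71 for Chrng, and 18.5 to 24.1 percentage points for the gamma share. DESeq2 called 6027 genes and 4 members. None of 80 alternative values of the 10 subunit ratios changed sign. With library totals the log2 fold changes of Hnrnpu (0.27), Crk (0.0086), Ttn (0.20), Mbp (0.32) and Dcn (0.24) reversed, as this scaling shifts all genes towards mKO. Mbp ranged from -1.03 (called lower, without mKO replicate 3) to 0.24 when a library was left out, and the cause was not tested. Among other named genes, calls of Erbb2, Erf, Col1a1, Myf6, Pax7 and Hsp90b1 were each lost in 3 or more alternatives. The replicate block called 5519 genes and 4 members, with log2 fold changes of 1.42 for Chrna1, 0.21 for Chrnb1, 2.12 for Chrnd, -0.90 for Chrne and 6.81 for Chrng. Deviations of same-numbered libraries correlated at 0.0185, -0.0020 and 0.0224, and not every library correlated best with its own number. Correlations this small, from so few libraries, cannot show whether the numbers pair the samples. Low counts limit Chrng in WT and the neuronal subunits.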
